A study of Homo sapiens with 8 samples.

Results

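The pigment synthesis and melanosome genes were examined in A2058, an established human melanoma cell line, after exposure to TGFβ1. The set holds 32 genes, matched to probes by their gene symbols, of 20045 named genes on the array, and all 32 were measured. There were 4 wells treated with TGFβ1 and 4 control wells, titled untreated and called vehicle below. Each well had 1 Illumina HT-12 expression array. The sample titles of both groups name an empty vector for every well. The paper's methods for this TGFβ1 experiment do not describe a transfection. Exposure lasted 24 h in serum-free medium, at either 5 or 10 ng/ml of TGFβ1, and the labels do not say which dose a well received. All wells came from 1 passage seeded on a single day, and the p-values below speak only for the spread among wells of that kind. The arrays came from whole cultures, in which fewer pigmented cells and less RNA per cell cannot be told apart.

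Melanin is made in the melanosome, an organelle related to the lysosome. Tyrosinase and its relatives make the pigment from tyrosine inside this organelle, on a scaffold of PMEL fibrils. Transporters and channels set the ion content and copper supply of the melanosome. The enzymes arrive from endosomes by way of the sorting complexes AP-3, BLOC-1, BLOC-2 and BLOC-3 and of the GTPases RAB32 and RAB38, and ripe melanosomes are moved along actin by RAB27A, melanophilin and myosin Va. In melanocytes and melanoma cells the transcription factor MITF binds CATGTG and CACGTG elements upstream of many of these genes.

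The sequences before the start sites of the genes show where such letters lie. RefSeq start sites on GRCh38.p14 were held for 26 of the 32 genes, and the 250 bases before each start were searched for CATGTG on both strands, which reads CACATG on the gene's own strand when the element faces the other way. The letters were found for 12 of the 26 genes (46.2%) and for 11.5% of all 27305 genes with an entry, counting a gene with several starts if any of its windows held them, or 9.42% of all 35116 windows. CACGTG, which reads alike on both strands, was found for 6 of the 26 genes (23.1%), namely ATP7A, MLPH, HPS3, HPS5, BLOC1S1 and BLOC1S3, and for 7.73% of all genes. BLOC1S3 alone held both, at separate places. PMEL, SLC45A2, RAB38, HPS1, AP3B1 and AP3D1 were not searched here. The windows printed below belong to 4 genes that were lower under TGFβ1 and hold CATGTG (TYRP1, MC1R, TSPAN10 and SLC24A5) and to 2 genes that hold it and did not pass the test (TYR and GPR143). Each runs 5′ to 3′ on the strand of its gene and ends on the base before the start, with CATGTG or CACATG in capitals. The positions are chr9:12693135-12693384 (plus strand) for TYRP1, chr16:89918612-89918861 (plus strand) for MC1R, chr17:81642055-81642304 (plus strand) for TSPAN10, chr15:48120740-48120989 (plus strand) for SLC24A5, chr11:89177625-89177874 (plus strand) for TYR and chrX:9765848-9766097 (minus strand) for GPR143.
TYRP1: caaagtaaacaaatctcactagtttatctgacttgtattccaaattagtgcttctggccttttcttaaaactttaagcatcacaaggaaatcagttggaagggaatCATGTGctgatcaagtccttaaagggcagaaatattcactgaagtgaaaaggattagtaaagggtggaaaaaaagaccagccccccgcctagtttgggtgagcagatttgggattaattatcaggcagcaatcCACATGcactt
MC1R: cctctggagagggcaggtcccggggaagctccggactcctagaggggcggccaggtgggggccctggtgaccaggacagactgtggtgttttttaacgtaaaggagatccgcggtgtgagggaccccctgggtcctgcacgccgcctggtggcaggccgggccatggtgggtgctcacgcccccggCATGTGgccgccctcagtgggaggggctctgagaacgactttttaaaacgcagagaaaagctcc
TSPAN10: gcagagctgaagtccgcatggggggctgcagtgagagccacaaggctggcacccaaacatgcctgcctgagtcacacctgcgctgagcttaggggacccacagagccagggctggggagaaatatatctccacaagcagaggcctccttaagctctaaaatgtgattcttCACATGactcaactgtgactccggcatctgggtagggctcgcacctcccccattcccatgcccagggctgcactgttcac
SLC24A5: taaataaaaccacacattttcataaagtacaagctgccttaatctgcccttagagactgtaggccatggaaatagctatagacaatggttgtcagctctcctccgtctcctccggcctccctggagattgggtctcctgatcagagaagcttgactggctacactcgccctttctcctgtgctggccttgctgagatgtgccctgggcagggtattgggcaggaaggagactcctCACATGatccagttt
TYR: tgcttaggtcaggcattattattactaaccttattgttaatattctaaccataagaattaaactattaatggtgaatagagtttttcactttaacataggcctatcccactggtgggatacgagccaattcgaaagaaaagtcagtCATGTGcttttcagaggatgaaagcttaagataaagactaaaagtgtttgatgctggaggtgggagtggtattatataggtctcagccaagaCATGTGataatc
GPR143: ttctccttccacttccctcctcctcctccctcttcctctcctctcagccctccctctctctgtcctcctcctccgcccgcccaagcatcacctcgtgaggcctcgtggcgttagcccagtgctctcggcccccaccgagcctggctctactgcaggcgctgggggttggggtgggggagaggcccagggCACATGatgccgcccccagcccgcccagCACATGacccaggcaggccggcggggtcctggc

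TYRP1 and TYR each hold the letters at 2 places, TYRP1 at 144 and 11 bases before its start and TYR at 104 and 12 bases before it. MC1R holds them once, 64 bases before the start, TSPAN10 once at 80 bases and SLC24A5 once at 15 bases. GPR143 has 2 copies at 61 and 33 bases. The remaining 6 genes with CATGTG were GPNMB, OCA2, TRPM1, HPS4, BLOC1S3 and LYST. The letters were thus present for 4 of the 7 lower genes with an entry and for 8 of the 19 others. These matches describe the sequence only, and no binding was measured here.

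The measurements are log2 values centred before deposit, so 0 is the mean of a gene over the 8 arrays and the means of both groups mirror each other around it. Neither the brightness of a probe nor its background or detection call is kept in them. The levels of melanocyte markers that would check the cell type, such as PMEL and MLANA, can therefore not be given, and dim probes could not be set aside. The gene symbols cover 47 probes of the set. For 24 genes there was 1 probe and for 8 genes there were several, up to 4, which were averaged. TGFβ1 was compared with vehicle in limma over all 20045 genes, with p-values adjusted by the Benjamini-Hochberg method, and a gene passed at an adjusted p under 0.05. Of 14 measured marker genes of epithelial, blood, endothelial and fibroblast cells, 0 passed, where 2.67% of all genes were lower and 3.03% higher. Their log2 changes lay between −0.19 and 0.17. An unadjusted p under 0.05 in limma was seen for 2 of the 14, and for 3135 of all 20045 genes.

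Part of the pigment programme was lower in TGFβ1-treated cells and none of it passed as higher. TYRP1, a melanosomal enzyme of the tyrosinase family, and RAB38, a GTPase that brings such enzymes to the melanosome, fell furthest, by 0.80 and 0.78 on the log2 scale. MC1R, the receptor for melanocyte-stimulating hormone, the tetraspanin TSPAN10, the sorting subunit HPS5, the motor MYO5A, the GTPase RAB32 and the ion exchanger SLC24A5 fell by less, between 0.47 and 0.27. Tyrosinase itself and the structural protein PMEL did not pass.

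In all, 8 of the 32 genes (25.0%) were lower in limma, against 2.67% of all genes. The 32 genes were chosen with earlier results of these data known. This contrast with all genes, and those below, are therefore a description only. As higher, 0 of 32 passed in limma, where 3.03% of all genes were, and 0 of 32 did in SAM, where 2.3% of all genes did. At an unadjusted p under 0.05 in limma, 16 of the 32 were lower and 1 higher. Of all 20045 genes, 1612 were lower and 1523 higher at that threshold. The median log2 change of the set was −0.12, beside −0.0013 over all genes, and 23 genes had a negative and 9 a positive change. The lower count was 5 without vehicle replicate 4, 5 in SAM (1.47% of all genes) and 5 at an adjusted p under 0.01 in limma (1.28% of all genes).

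**Figure D1:**
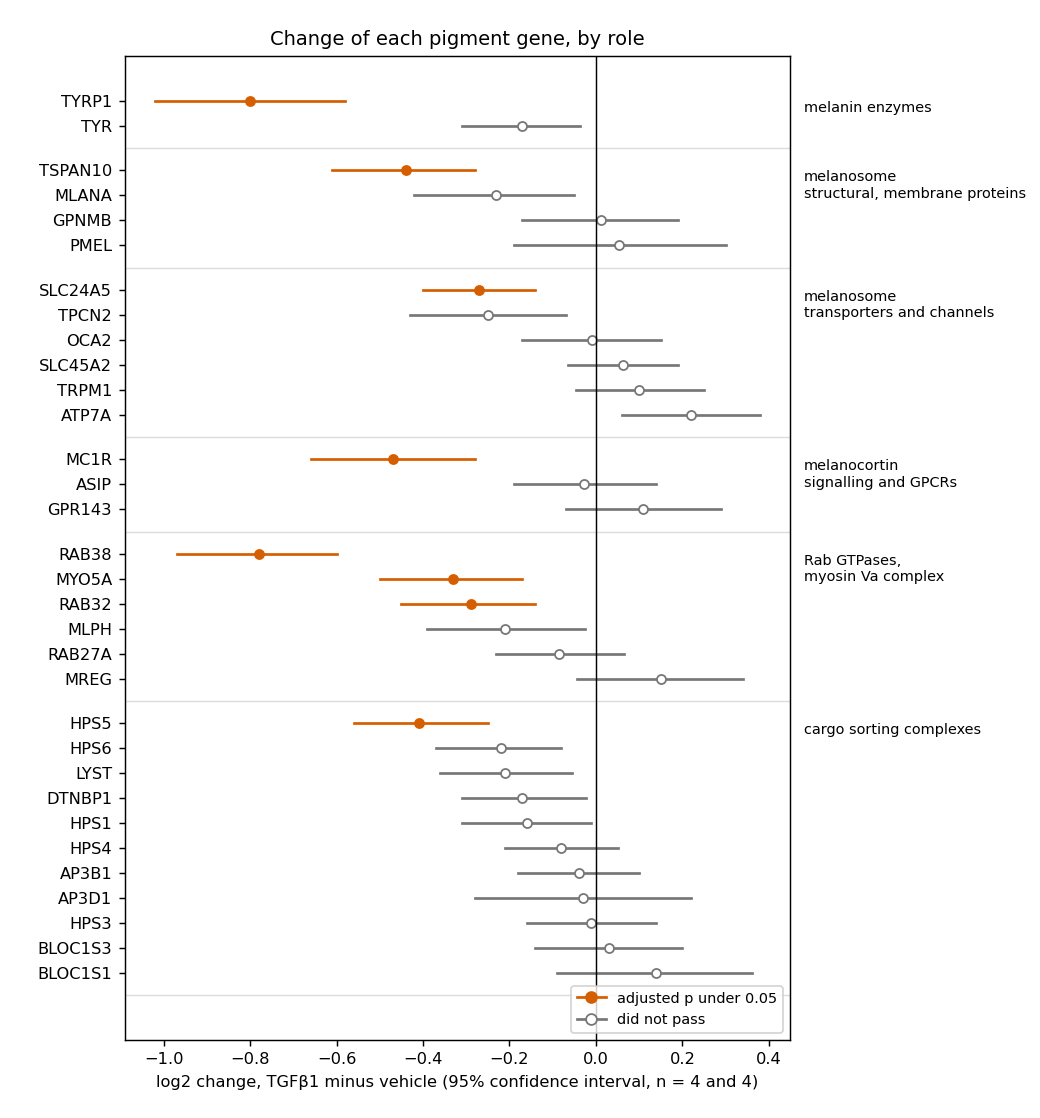
Log2 change of each of the 32 genes, TGFβ1 minus vehicle, with its 95% confidence interval from limma (n = 4 arrays each), grouped by role and sorted within each group. Filled orange points mark the 8 genes with an adjusted p under 0.05, all left of 0, and open grey points the 24 others, whose intervals run between −0.43 and 0.38.

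Separation of the single arrays gave a similar picture. Every TGFβ1 array lay below every vehicle array for 9 of the 32 genes (28.1%), against 5.07% of all genes. The reverse order was seen for 1 gene, ATP7A, where it held for 5.2% of all genes. The median over the 32 genes lay between −0.0901 and −0.0424 on the TGFβ1 arrays and between 0.00272 and 0.1 on the vehicle arrays, so it too did not overlap.

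**Figure D2:**
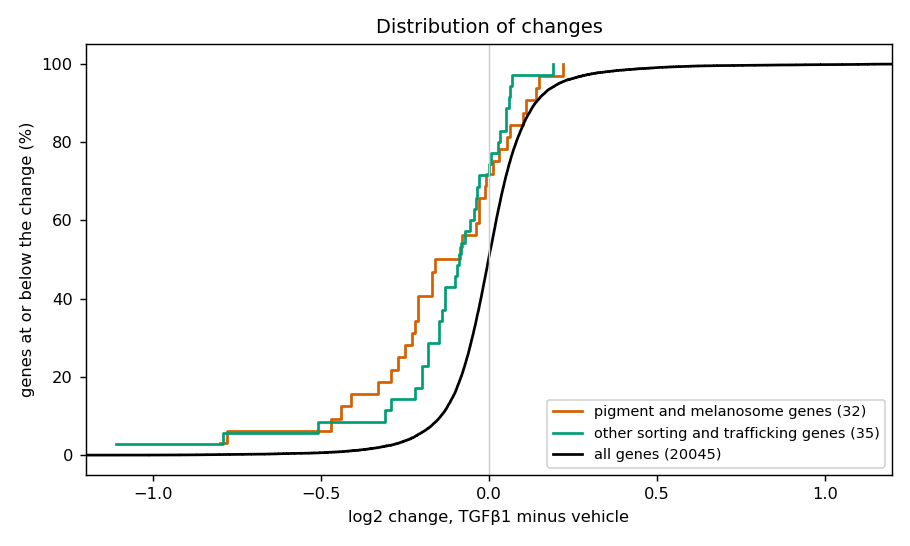
Cumulative share of genes (%) at or below a given log2 change, TGFβ1 minus vehicle, for the 32 pigment and melanosome genes, 35 further sorting and trafficking genes and all 20045 genes. The curve of the pigment genes starts at −0.80 and lies left of that of all genes from there up to 0. It crosses 50% near −0.12, and the curve of all genes, which starts lower, crosses 50% near 0. The horizontal axis ends at 1.2 on either side, and a few genes lie beyond it.

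The melanin enzymes were represented by TYRP1 and TYR. TYRP1 measured −0.37, −0.15, −0.57 and −0.51 on the 4 TGFβ1 arrays, against 0.63, 0.47, 0.19 and 0.32 on the 4 vehicle arrays. The groups were well apart, with the lowest vehicle array at 0.19 and the highest TGFβ1 array at −0.15. Its mean was −0.40 ± 0.185 under TGFβ1 and 0.40 ± 0.188 under vehicle (SD, n = 4 each), which in limma is a change of −0.80 (SE 0.103, adjusted p = 0.00026), or 42.6% lower. It stood 33rd from the lowest change among the 20045 genes.

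TYR, which catalyses the first and limiting step of melanin synthesis, had a smaller change. It measured 0.03, −0.11, −0.16 and −0.12 under TGFβ1, against −0.00636, 0.16, 0.13 and 0.067 under vehicle. TGFβ1 replicate 1 lay above the lowest vehicle array, so the groups overlapped. TYR changed by −0.17 with a 95% interval of −0.31 to −0.036, and it did not pass (adjusted p = 0.17 in limma). The change of TYRP1 minus that of TYR was −0.63, and this difference of 2 log2 values lay between −0.42 and −0.0477 on TGFβ1 arrays and between 0.0614 and 0.63 on vehicle arrays. This was 1 of 17 such differences between genes of one role or complex, listed after the single genes were known. It was fully separated over the arrays (p = 0.0286, two-sided exact permutation test, the smallest p that 4 arrays against 4 allow). After Benjamini-Hochberg adjustment over the 17 it stood at 0.081, and none of them passed. Because the pairs were picked with the single genes known and p cannot go lower, the 17 differences, here and below, are a description only. The brightness of the probes is not kept, so the changes of 2 genes may not be on one scale.

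Among the 4 structural and membrane proteins 1 was lower (25.0%), against 2.67% of all genes. It was TSPAN10, a tetraspanin of pigment cells, and the other 3 did not pass. With so few genes to a role, here and below, 1 gene alone shifts the share widely. TSPAN10 measured −0.21, −0.0832, −0.41 and −0.18 under TGFβ1, against 0.27, 0.25, 0.0914 and 0.28 under vehicle. The groups did not overlap, and vehicle replicate 3 lay well below its fellows. In limma this amounted to a change of −0.44 (SE 0.0764, adjusted p = 0.0028).

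MLANA, a melanosomal membrane protein that binds PMEL, measured −0.0734, −0.19, −0.18 and −0.0232 under TGFβ1, against −0.12, 0.21, 0.0909 and 0.29 under vehicle. Vehicle replicate 1 fell among the TGFβ1 arrays and the other 3 lay above all of them. MLANA changed by −0.23 and did not pass in limma (SE 0.0847, adjusted p = 0.16). Without that vehicle array the change was −0.31 and passed (adjusted p = 0.027).

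PMEL, which forms the fibrils on which melanin is laid down, measured 0.0353, 0.0786, −0.24 and 0.23 under TGFβ1, against 0.00085, 0.2, 0.0293 and −0.34 under vehicle. The groups overlapped almost entirely, and the widest spread within each group came from 1 array on either side. The change was 0.0532 with a 95% interval of −0.19 to 0.30 (adjusted p = 0.91 in limma), and its sign turned without TGFβ1 replicate 4 (−0.0159) or without vehicle replicate 4 (−0.0509). GPNMB, a glycoprotein related to PMEL, changed by 0.0112 (SE 0.0849) over 2 probes.

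**Figure D3:**
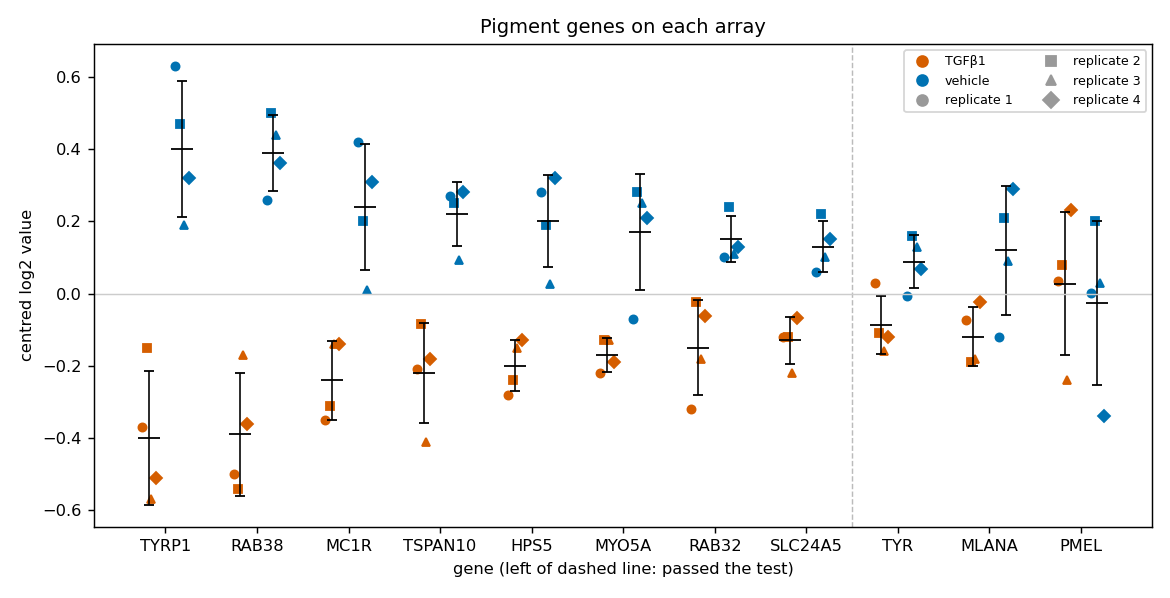
Centred log2 values of 11 pigment genes on each array, TGFβ1 (orange) left of vehicle (blue), with the replicate shown by the marker and the mean ± SD in black (n = 4 each). For the 8 genes left of the dashed line all TGFβ1 arrays lie below all vehicle arrays, by the narrowest gap for MYO5A, while for TYR, MLANA and PMEL the groups overlap.

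The transporters and channels gave 1 lower gene of 6 (16.7%), against 2.67% of all genes. SLC24A5, a potassium-dependent sodium and calcium exchanger of the pigment cell, measured −0.12, −0.12, −0.22 and −0.0678 under TGFβ1, against 0.0597, 0.22, 0.1 and 0.15 under vehicle. All TGFβ1 arrays were negative and all vehicle arrays positive. In limma SLC24A5 fell by 0.27 (SE 0.0616, adjusted p = 0.018). The call was lost without TGFβ1 replicate 3, vehicle replicate 2 or vehicle replicate 4 (adjusted p between 0.052 and 0.066).

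ATP7A, the pump that supplies copper to tyrosinase, pointed the other way. It measured 0.23, 0.05, 0.11 and 0.0486 under TGFβ1, against −0.29, −0.11, −0.0406 and 0.0015 under vehicle. The groups did not overlap, although the lowest TGFβ1 and the highest vehicle arrays were close. The change of 0.22 (SE 0.0744) did not pass (adjusted p = 0.12 in limma), and it did so in none of the alternatives tried.

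The other 4 of this group did not pass either. TPCN2, a cation channel of endosomes and melanosomes, changed by −0.25 (SE 0.084, adjusted p = 0.12 in limma). TRPM1, a cation channel of melanocytes, changed by 0.10 (SE 0.0682). OCA2 and SLC45A2, which both act on the pH of the melanosome, changed by −0.00974 (SE 0.0756) and 0.0621 (SE 0.0588). The change of SLC24A5 was more negative than that of SLC45A2 by 0.33 and than that of OCA2 by 0.26, each fully separated over the arrays at the same p and adjusted p as above.

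MC1R was the lower gene of the 3 concerned with melanocortin and other G protein-coupled receptors (33.3%, against 2.67% of all genes). It measured −0.35, −0.31, −0.14 and −0.14 under TGFβ1, against 0.42, 0.2, 0.00942 and 0.31 under vehicle. The groups did not overlap, but vehicle replicate 3 came within reach of the TGFβ1 arrays. It fell by 0.47 in limma (SE 0.0871, adjusted p = 0.0047), or to a level 27.8% lower. ASIP, the secreted antagonist of MC1R, changed by −0.0284 (SE 0.0761). GPR143, a receptor in the melanosome membrane, changed by 0.11 (SE 0.0833), and the groups of both genes overlapped.

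The Rab GTPases and the myosin Va complex had 3 lower genes of 6 (50.0%), against 2.67% of all genes, and a median change of −0.25. RAB38 measured −0.50, −0.54, −0.17 and −0.36 under TGFβ1, against 0.26, 0.50, 0.44 and 0.36 under vehicle. The gap between the groups was wide, the lowest vehicle array being at 0.26 and the highest TGFβ1 array at −0.17. Its mean was −0.39 ± 0.17 under TGFβ1 and 0.39 ± 0.105 under vehicle (SD, n = 4 each), which in limma is a change of −0.78 (SE 0.0856, adjusted p = 5.5e-05), or 41.9% lower.

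RAB32, the close relative of RAB38, measured −0.32, −0.0244, −0.18 and −0.0619 under TGFβ1, against 0.10, 0.24, 0.11 and 0.13 under vehicle. The vehicle arrays were close together and the TGFβ1 arrays spread widely below them. RAB32 fell by 0.29 in limma (SE 0.0722, adjusted p = 0.028). The call was lost without TGFβ1 replicate 1 or 3, or without vehicle replicate 2, 3 or 4 (adjusted p between 0.052 and 0.093). The change of RAB38 minus that of RAB32 was −0.49 and was fully separated over the arrays (two-sided exact permutation test, p = 0.0286, adjusted 0.081 over the 17).

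MYO5A, the motor that holds melanosomes on actin, measured −0.22, −0.13, −0.13 and −0.19 under TGFβ1, against −0.0695, 0.28, 0.25 and 0.21 under vehicle. Vehicle replicate 1 lay just above the TGFβ1 arrays and the other 3 far above them. In limma MYO5A fell by 0.33 (SE 0.077, adjusted p = 0.019). The call was lost without TGFβ1 replicate 1 or without vehicle replicate 2, 3 or 4 (adjusted p between 0.058 and 0.069).

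The partners of myosin Va did not pass. MLPH, the linker between RAB27A and the motor, changed by −0.21 (SE 0.0855, adjusted p = 0.23 in limma). RAB27A, which sits on the melanosome, changed by −0.0848 (SE 0.0694) over 4 probes of −0.14, −0.12, −0.0519 and −0.0243. MREG, a regulator of melanosome distribution known from mouse, changed by 0.15 (SE 0.089). The change of MYO5A was more negative than that of RAB27A by 0.25, fully separated at the same p and adjusted p, while that of MYO5A minus MLPH, −0.12, was not (p = 0.457 in the exact permutation test).

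The cargo sorting complexes gave 1 lower gene of 11 (9.09%), against 2.67% of all genes. The lower gene was HPS5, a subunit of BLOC-2. HPS5 measured −0.28, −0.24, −0.15 and −0.13 under TGFβ1, against 0.28, 0.19, 0.0276 and 0.32 under vehicle. The groups did not overlap, with vehicle replicate 3 nearest to the TGFβ1 arrays. HPS5 changed by −0.41 in limma (SE 0.072, adjusted p = 0.0034). Its 3 probes changed by −0.59, −0.42 and −0.20, and of these only the probe at −0.59 passed on its own (adjusted p = 0.00024 over all probes in limma). The probe with the largest SD, at −0.42, did not pass when it stood for the gene (adjusted p = 0.1).

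HPS6, another subunit of BLOC-2, measured 0.0272, −0.13, −0.16 and −0.19 under TGFβ1, against 0.0906, 0.0974, 0.21 and 0.045 under vehicle. The groups did not overlap, although TGFβ1 replicate 1 came close to the vehicle arrays. The change of −0.22 (SE 0.0663) did not pass with all arrays (adjusted p = 0.074 in limma) and passed without TGFβ1 replicate 1 (adjusted p = 0.035). HPS3, the remaining subunit, changed by −0.0123 (SE 0.0703). The change of HPS5 minus that of HPS3 was −0.39, fully separated at the same p and adjusted p as the separated differences above. HPS5 minus HPS6, at −0.18, and HPS6 minus HPS3, at −0.21, were not separated (p = 0.2 and 0.0571 in the exact permutation test).

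In the other sorting complexes 0 genes passed in limma, where 2.67% of all genes were lower and 3.03% higher. HPS1 and HPS4, which form BLOC-3, the activator of RAB32 and RAB38, changed by −0.16 (SE 0.0701) and −0.0808 (SE 0.0617). The BLOC-1 subunits DTNBP1, BLOC1S3 and BLOC1S1 had changes of −0.17, 0.0299 and 0.14. The AP-3 subunits AP3B1 and AP3D1, which pick up tyrosinase on endosomes, changed by −0.04 and −0.0296. Of these 7 genes DTNBP1 and HPS1 had an unadjusted p under 0.05, as did 3135 of all 20045 genes.

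LYST, which controls the size of lysosomes and melanosomes, showed unlike probes. The gene changed by −0.21 (SE 0.0714, adjusted p = 0.13 in limma), with overlapping groups. One of its 2 probes changed by −0.35 and passed alone (adjusted p = 0.017 over all probes in limma), and the other changed by −0.0649 (adjusted p = 0.90).

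**Figure D4:**
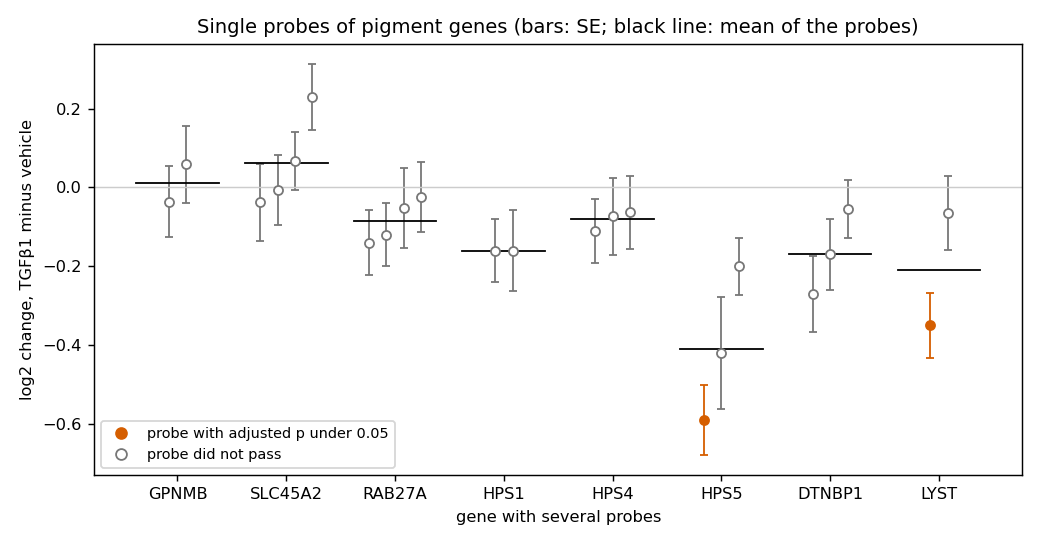
Log2 change, TGFβ1 minus vehicle, of the single probes of the 8 pigment genes with several probes, with the SE as bars and the mean of the probes as a black line. Filled orange points passed over all probes, 1 probe each of HPS5 and LYST, and the largest positive change is that of an SLC45A2 probe at 0.23.

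Taken probe by probe, 7 of the 47 probes (14.9%) were lower in limma, against 1.53% of all 47315 probes. As higher, 0 of 47 passed, against 1.8% of all probes. An unadjusted p under 0.05 was seen for 19 of the 47, 2 of them with a positive change. The share of all probes at that threshold was not counted. The 7 probes belonged to TYRP1, TSPAN10, MC1R, RAB38, MYO5A, HPS5 and LYST. SLC24A5 and RAB32, with 1 probe each, passed as genes but not as probes (adjusted p = 0.056 each over all probes in limma). Besides the larger number of probes, their SE was larger in the fit over probes. It was 0.075 there and 0.0616 in the fit over genes for SLC24A5, and 0.0813 and 0.0722 for RAB32.

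No single array was the extreme one for all 8 lower genes. Vehicle replicate 3 was the lowest vehicle array for TYRP1, MC1R, TSPAN10 and HPS5, and vehicle replicate 1 was the lowest for RAB38, RAB32, MYO5A and SLC24A5. Vehicle replicate 2 was the highest for these last 4 genes. Among the TGFβ1 arrays, replicate 1 was the lowest for 4 of the 8 genes, replicate 3 for 3 and replicate 2 for 1. The calls of TYRP1, RAB38, MC1R, TSPAN10 and HPS5 held when any 1 of the 8 arrays was left out.

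For the 24 genes that did not pass, the 95% intervals all lay within a log2 change of 0.5 on either side of 0, from −0.43 to 0.38. The intervals of 8 of them excluded 0 on the lower side and that of ATP7A on the higher side. Such an interval goes with an unadjusted p under 0.05. Of all 20045 genes, including those that passed, 1612 were lower and 1523 higher at that threshold. The change of SLC24A5, which passed, was −0.27 and also lies within 0.5 of 0. The median change of the 24 genes was −0.029, and they were picked by not passing in the same fit.

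Further genes of the pathway were counted from lists that do not hold any of the 32. These lists, and that of transcription factors below, were drawn up with earlier results of these data known. Their counts are therefore a description only. Of 12 other measured melanogenesis genes, 1 was lower (8.33%) and 0 higher, against 2.67% and 3.03% of all genes. The lower gene was SLC7A11, the cystine and glutamate exchanger that feeds pheomelanin synthesis in mouse, at −0.48 (SE 0.0897, adjusted p = 0.0051 in limma). MFSD12, which brings cysteine into melanosomes, changed by 0.30 and did not pass (adjusted p = 0.056). DCT and CD63 were not analysed here.

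Of 35 other sorting and trafficking genes, 3 were lower (8.57%) and 0 higher, against 2.67% and 3.03% of all genes. TBC1D16, a Rab GTPase-activating protein, fell by 1.11 (SE 0.0891, adjusted p = 3.3e-06 in limma). RAB17, a GTPase of recycling endosomes, fell by 0.79 (SE 0.0641, adjusted p = 3.4e-06), with TGFβ1 arrays between −0.48 and −0.26 and vehicle arrays between 0.34 and 0.45. STX3, a syntaxin of melanosome cargo delivery, fell by 0.51 (SE 0.0802, adjusted p = 0.0013). The median of this list was −0.0878.

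Of 9 measured transcription factors that act upstream of the pigment genes, 4 were lower (44.4%) and 1 higher (11.1%). Over all genes these shares were 2.67% and 3.03%. MITF fell by 0.39 (SE 0.0734, adjusted p = 0.0055 in limma) as the mean of 3 probes at −1.0, −0.12 and −0.0451. Only the probe at −1.0 passed alone (adjusted p = 5.4e-06 over all probes in limma), and the others stood at 0.73 and 0.93. SOX10 fell by 0.35 (SE 0.0739, adjusted p = 0.011). IRF4, which acts with MITF on the TYR gene, fell by 0.60 (adjusted p = 0.00023) and TFAP2A by 0.23 (adjusted p = 0.028), with 5 probes that ranged between −0.57 and −0.0365. LEF1, a nuclear factor of Wnt signalling, rose by 0.60 (adjusted p = 4.2e-05). Whether these changes bear on those of the pigment genes was not tested.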

How the data were processed

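Each of 8 wells of A2058 cells gave RNA for 1 Illumina HT-12 array. The authors quantile normalised the signals, removed control probes, took logarithms and centred genes and samples, and the deposited values are these log2 values. Checked on the table, every probe mean over the arrays was 0 within 1.57e-07 and every array mean within 1.82e-05. The log base rests on the methods, since the values cannot show it. Of 47315 probes, 30105 had 1 gene symbol in the platform annotation, 8 had several and were left out of gene values, and 17202 were unnamed here. A gene is the mean of its probes. Depth does not apply to arrays; the 4 arrays per group limit the precision.

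The contrast of TGFβ1 minus vehicle was fitted without covariates in limma (lmFit and eBayes, version 3.58.1, under R 4.3.3), and p-values were adjusted by Benjamini-Hochberg over all genes or all probes. The fit was tested on simulated data. SAM was coded anew with a median of 10 false positives over 70 labellings. Other alternatives were the probe with the largest SD, the median of the probes, quantile normalisation again, a common median, array weights, robust eBayes, the threshold of 0.01, a block on the replicate number, leaving out each array and, chosen after seeing the data, every probe on its own. Python 3.11.15, pandas 2.3.3, scipy 1.17.1 and matplotlib 3.10.9 were used. Promoter windows came from RefSeq, GRCh38.p14.

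The members and gene lists were chosen with earlier results of these data known. Among the 32 genes, values per array are given for those that passed, those whose groups do not overlap and for TYR, TYRP1, PMEL, MLANA and MC1R; probes are described where those of 1 of the 32 genes differ in call, and the rest by change, range or count. Of the other lists, genes that passed are named, with their probes where these differ in call. The arrays of the study's siRNA experiment were not analysed here.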

Additional observations from a re-analysis of the deposited data

Results flagged for a closer look

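Of 64 groups of 4 arrays examined, 2 per pigment gene, 2 held an array far from the other 3, and chance alone marks about 5% of such groups. TSPAN10 in vehicle replicate 3 was at 0.0914, while the other vehicle arrays lay between 0.25 and 0.28, and the gap made up 0.868 of the group's range. TSPAN10 also passed without that array. AP3D1 in TGFβ1 replicate 4 was at 0.12, while the other TGFβ1 arrays lay between −0.0687 and −0.0409, a gap of 0.85 of the range. AP3D1 did not pass with all arrays, at a log2 change of −0.0296.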

How the results depend on the processing

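The calls of TYRP1, RAB38, MC1R and TSPAN10 held under every alternative run on genes, and HPS5 lost its call only where the probe with the largest SD stood for the gene. The count of 8 lower pigment genes was 5 at an adjusted p under 0.01 and 5 under SAM, both without MYO5A, RAB32 and SLC24A5. It lay between 5 and 9 when 1 array was left out, with 5 reached without vehicle replicate 4. The count of higher pigment genes was 0 in each. Other pathway genes past the threshold numbered 4, and 7 with the probe of largest SD, where the cause was not tested. PMEL, at 0.0532 with all arrays, ranged between −0.0509 (without vehicle replicate 4) and 0.14 (without TGFβ1 replicate 3) when 1 array was left out, and was −0.0159 without TGFβ1 replicate 4. The replicate numbers did not pair the arrays: the deviations of same-numbered arrays correlated at −0.0159, 0.0265, −0.0151 and −0.0039, and only replicate 2 correlated best with its own number. With the replicate block all 8 calls were kept, and over all genes 472 were lower and 554 higher, against 535 and 608 without it. Probes whose signal is near background could not be told from bright ones.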
